A study of Mus musculus with 6 samples.

Results

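Macrophages are the resident phagocytes of the dental pulp, and the 37 genes described here are markers of these cells and of the presentation of antigen to T cells. The genes were taken as a fixed list of symbols, and every probe set that the platform annotation gives to 1 of these symbols alone was read on 6 Affymetrix mouse arrays. All 37 were found among the 18193 genes named on the array, by 64 probe sets. They were placed in 4 subgroups by role: 20 pan-myeloid genes, 10 genes of resident macrophages, the 3 genes of complement C1q and 4 genes of MHC class II. The list and its subgroups were chosen with earlier results of these data known.

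The arrays were hybridised with RNA from the pulp of mice labelled Ring1 deletion (3 arrays) and of control mice (3 arrays). The deletion mice carried the genotype label Ring1a-/-;Ring1b cko/cko;CreERT2, received 4-hydroxytamoxifen at 40 mg/kg on postnatal days 9 and 13, and gave pulp on day 17. The control mice carried Ring1a-/-;Ring1b flox/flox;CreERT2, received corn oil on the same days and gave pulp at the same age. Both groups therefore lacked Ring1a, drug and deletion differed together, and the promoter that drives CreERT2 was not given in the sources used here. Ring1a and Ring1b are ubiquitin ligases of Polycomb repressive complex 1. By its title the series concerns how mesenchymal stem cells of the growing incisor become transit amplifying cells.

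Tissue macrophages depend on the receptor Csf1r and its ligands, take up debris and microbes through scavenger and lectin receptors, and secrete C1q, which opens the classical complement pathway. MHC class II molecules, made of an alpha and a beta chain and guarded by the invariant chain Cd74 until they reach the endosome, present peptides to CD4+ T cells. In many tissues resident macrophages can be told apart by their Mrc1, Cd163, Folr2 and Lyve1, by their Cx3cr1, or by their MHC class II. In bulk RNA, fewer cells of a type and less RNA per cell cannot be told apart, and this holds for each difference below.

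Values are MAS5 signals on a linear scale unless a sentence says log2. Each array had a mean signal of 500 after trimming, and between 53.8% and 57.9% of probe sets were called Present. The ratio of the 3' to the 5' probe set of Actb, which rises as RNA is shortened, was 3.69, 1.97 and 1.89 on deletion replicates 1 to 3 and 6.47, 1.95 and 1.83 on control replicates 1 to 3. Control replicate 1, and to a lesser degree deletion replicate 1, thus stood apart in RNA quality. For some members and subgroups, though not for all that moved, values without 1 or both of them are given below. The Rnf2 probe set, for the gene of Ring1b, had signals of 3165, 3549.6 and 2831 in deletion and 2693, 2439.6 and 2233 in control, so it was not lower where Ring1b is labelled deleted. Its position relative to the deleted part was not known here, so it does not check the labels. Of 13 listed genes of pulp mesenchyme and odontoblasts 12 were tested, so the tissue's own genes were detected, and their log2 changes went both ways, from -0.56 (Thy1) to 1.87 (Ibsp).

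Promoter letters are shown for 6 members, because all members of the C1q and MHC class II subgroups had higher means in deletion, Mrc1 had the highest log2 change and Clec7a was the member that passed the test. Each line is the 250 bases before the annotated start, on the strand of the gene, from RefSeq on GRCm38.p6. The tables matched 27 of the 37 members. H2-Aa lies on the minus strand at chr17:34287824-34288073 and H2-Eb1 on the plus strand at chr17:34305617-34305866. Capitals mark GCAAC, a piece of the X box, and CTGATTGG, the core of the Y box, elements that in MHC class II promoters bind the factors through which Ciita acts.
H2-Aa: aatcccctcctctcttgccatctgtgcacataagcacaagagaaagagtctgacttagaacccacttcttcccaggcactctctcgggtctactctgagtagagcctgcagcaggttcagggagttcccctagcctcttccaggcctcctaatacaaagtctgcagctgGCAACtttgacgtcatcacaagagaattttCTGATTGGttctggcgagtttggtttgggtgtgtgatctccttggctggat
H2-Eb1: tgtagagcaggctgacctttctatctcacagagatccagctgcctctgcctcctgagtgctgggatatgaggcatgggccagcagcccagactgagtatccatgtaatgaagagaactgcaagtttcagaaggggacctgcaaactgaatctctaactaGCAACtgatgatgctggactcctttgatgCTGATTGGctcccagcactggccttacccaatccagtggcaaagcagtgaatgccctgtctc

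In H2-Aa the GCAAC lay 81 to 77 bases and the CTGATTGG 51 to 44 bases before the start, and in H2-Eb1 they lay 91 to 87 and 62 to 55 bases before it. GCAAC, searched on both strands, was in 29.9% of all 32851 windows and CTGATTGG in 3.83%, and both in this order on 1 strand were in 0.42%. Among the 27 members with a window, these were the only 2 with that order. H2-Ab1, also of MHC class II, had no window and was not searched. For the next promoters capitals mark GAGGAA, or its complement TTCCTC, a core that Spi1, the myeloid master factor also called PU.1, can bind. C1qb lies on the minus strand at chr4:136886201-136886450, C1qc on the minus strand at chr4:136892915-136893164, Mrc1 on the plus strand at chr2:14229164-14229413 and Clec7a on the minus strand at chr6:129472780-129473029, the first of 2 windows that the table gives for it.
C1qb: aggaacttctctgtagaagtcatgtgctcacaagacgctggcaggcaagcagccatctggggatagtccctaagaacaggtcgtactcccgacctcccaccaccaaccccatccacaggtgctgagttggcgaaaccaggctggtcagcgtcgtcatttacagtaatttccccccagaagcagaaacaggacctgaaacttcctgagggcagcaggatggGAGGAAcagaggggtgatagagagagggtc
C1qc: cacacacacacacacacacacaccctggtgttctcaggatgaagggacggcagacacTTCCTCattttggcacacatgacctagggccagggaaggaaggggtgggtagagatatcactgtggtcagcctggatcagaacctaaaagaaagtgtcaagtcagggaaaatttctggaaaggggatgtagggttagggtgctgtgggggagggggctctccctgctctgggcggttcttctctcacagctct
Mrc1: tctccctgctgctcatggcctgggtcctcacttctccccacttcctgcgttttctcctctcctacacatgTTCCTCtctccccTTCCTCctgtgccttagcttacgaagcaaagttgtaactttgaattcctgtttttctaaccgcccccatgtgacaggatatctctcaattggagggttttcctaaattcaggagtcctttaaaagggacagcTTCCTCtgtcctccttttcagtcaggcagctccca
Clec7a: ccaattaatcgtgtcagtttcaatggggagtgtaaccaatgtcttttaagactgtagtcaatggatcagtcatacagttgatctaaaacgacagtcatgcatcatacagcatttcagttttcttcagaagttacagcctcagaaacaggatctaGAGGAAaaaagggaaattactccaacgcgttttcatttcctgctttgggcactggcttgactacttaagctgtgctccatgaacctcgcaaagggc

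GAGGAA was found, on either strand, in 15 of the 27 members with a window and in 25.8% of the other genes. Mrc1, which was higher in deletion, held 3 copies and Clec7a, which fell, held 1. A match describes these letters and does not show a binding site.

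Of the 37 members, 34 were tested because 3 or more arrays called them Present, and 30 of these were Present on every array. The 4 others tested, Itgam, Itgb2, Ccr2 and H2-Ab1, had calls in both groups, so none entered through 1 group alone. Clec7a fell in the deletion arrays and no member rose at an adjusted p under 0.05 (limma), where 2.65% of the 12250 genes tested passed, 1.89% toward higher and 0.759% toward lower values. One call among 34 is close to that background. With the replicate number as a block, 7 members passed toward higher values (Laptm5, Mrc1, Cd163, Pf4, C1qb, H2-Ab1 and H2-Eb1) and 1 toward lower (Clec7a), where 6.44% of genes passed toward higher and 4.19% toward lower values. The labels do not say that these numbers pair the arrays. In the fit without the block, at an unadjusted p under 0.05, 8 members were higher and 2 lower, against 9.3% and 5.85% of genes.

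The median log2 change was 0.59 over the 4 MHC class II genes, 0.48 over the 3 C1q genes, 0.21 over the 7 tested resident macrophage genes and -0.06 over the 20 pan-myeloid genes, beside 0.02 over all genes tested. Over the 34 members it was 0.19, with 20 means higher and 14 lower in deletion. Over all 12250 genes tested, 6432 means were higher and 5818 lower. The groups of arrays did not overlap in 9 of the 34 members (7 higher, 2 lower), where 20.8% of all genes did so, 12.2% higher and 8.64% lower. Single arrays moved these medians. Without deletion replicate 1 the median was 0.31 for C1q, -0.15 for the pan-myeloid genes and 0.12 for all members, and without control replicate 1 it was 0.43 for the resident macrophage genes. Without control replicate 3 the median of the resident macrophage genes was 0.13, and without deletion replicate 3 that of the pan-myeloid genes turned to 0.044. Without both replicate 1 arrays the median over all members was 0.089. These medians describe a list and subgroups that were chosen with earlier results of these data known. The difference between subgroups was not tested.

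**Figure D1:**
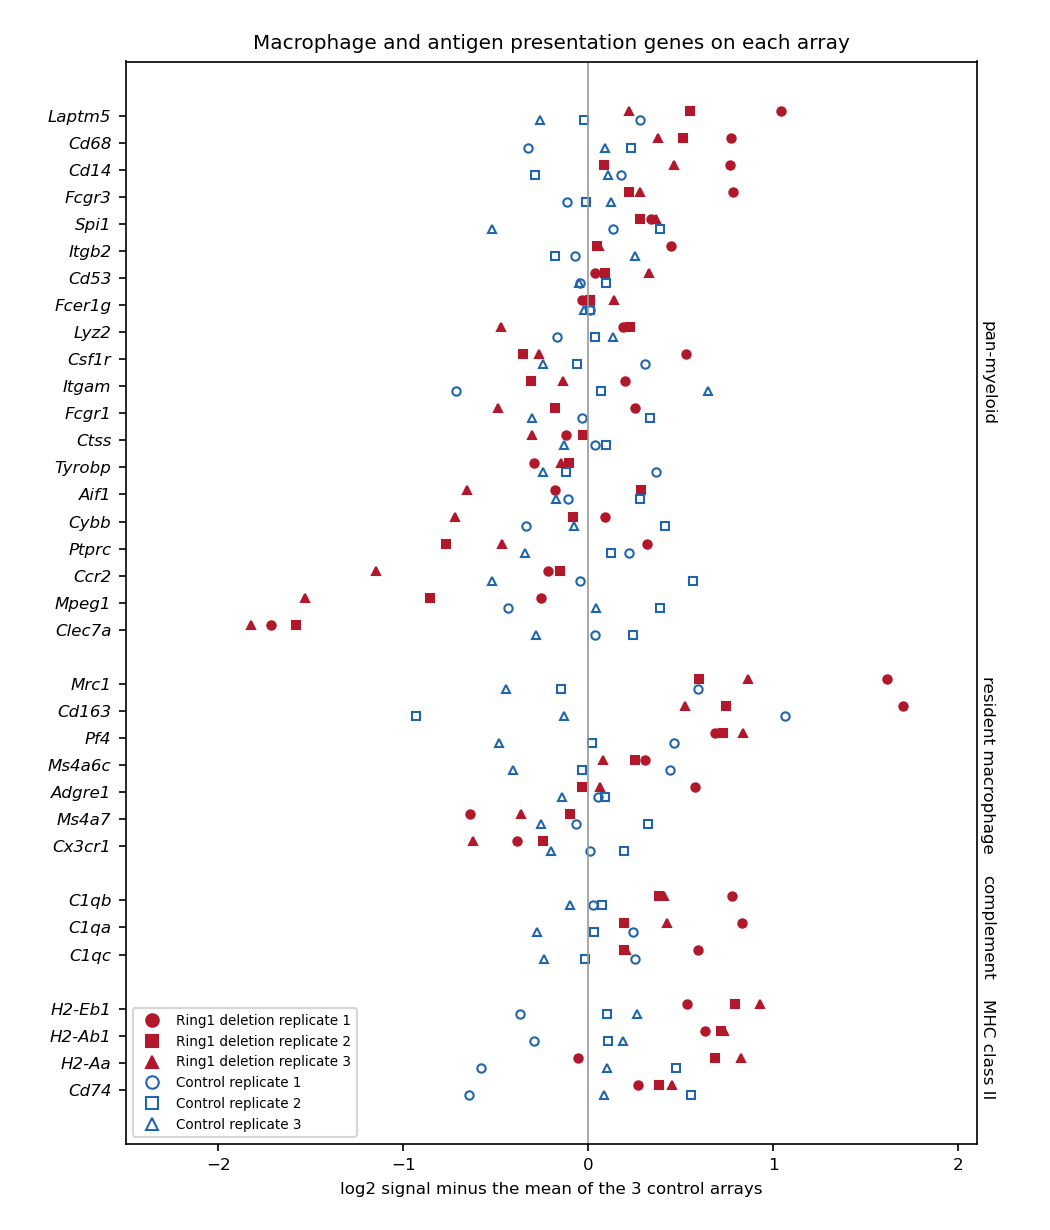
Log2 signal of each of the 34 tested members (rows, by subgroup) minus the mean of its 3 control arrays, with filled red marks for the Ring1 deletion arrays and open blue marks for the control arrays, and circle, square and triangle for replicates 1 to 3. Clec7a has its 3 deletion marks furthest to the left, whereas the deletion marks of Mrc1, Pf4, C1qb, H2-Ab1 and H2-Eb1 all lie to the right of their control marks.

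Pan-leukocyte and pan-myeloid genes gave little sign of a common shift. Ptprc, the CD45 phosphatase on all leukocytes, had signals of 851, 401 and 494 in deletion and 796, 743 and 539 in control. Csf1r, the receptor that macrophages need to survive, had 8714, 4722 and 5018 in deletion and 7460.0, 5777 and 5091 in control. Both genes were highest on deletion replicate 1, and their groups overlapped. The fitted log2 change of Csf1r was -0.03 ± 0.26 (SE), with a 95% interval of -0.60 to 0.55, and that of Ptprc was -0.31 ± 0.29, with an interval of -0.97 to 0.35 (adjusted p by limma = 0.979 and 0.711). The intervals span 0 and are wide, so equal levels are not shown. The other 2 kept probe sets of Csf1r differed by -0.02 and 0.12 on the log2 scale, which makes it the 1 member whose kept probe sets disagreed in sign.

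Spi1, the transcription factor that sets the myeloid fate, had signals of 164, 157 and 167 in deletion and 142, 169 and 90.2 in control. The subunits of the adhesion receptor Mac-1 were close to detection: Itgam was Present on 1 deletion and 2 control arrays, with signals of 49.4, 34.8 and 39.3 in deletion and 26.2, 45.3 and 67.4 in control. Its partner Itgb2, Present on 2 deletion and 3 control arrays, spanned 113 to 148 in deletion and 96.1 to 129 in control. None of these 3 passed in either fit, and the groups overlapped in each.

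The signalling adaptors that pair with activating receptors passed in neither fit. Fcer1g, the common gamma chain, had 1677, 1733 and 1892 in deletion and 1732, 1733 and 1691 in control, a log2 change of 0.04 ± 0.15 (SE; 95% interval -0.30 to 0.38). Tyrobp, the adaptor of Trem2 and related receptors, had 3657, 4170.3 and 4042 in deletion and 5774, 4120 and 3789.5 in control, with control replicate 1 highest. The leukocyte tetraspanin Cd53 differed by 0.15 ± 0.17 (SE) on the log2 scale. The log2 changes of 3 other phagocyte markers were -0.02 ± 0.21 for the lysozyme gene Lyz2, -0.15 ± 0.16 for Ctss, the cathepsin that trims the invariant chain, and -0.18 ± 0.26 for Aif1, the actin-binding protein Iba1.

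Several other phagocyte genes had higher means in deletion without passing the test. Cd68, a lysosomal glycoprotein used as a general macrophage marker, had signals of 588, 492 and 448 in deletion and 275, 405 and 367 in control. Its groups did not overlap, and the log2 change was 0.55 ± 0.22 (SE; adjusted p by limma = 0.272, and 0.137 under the block). Fcgr3, a low-affinity receptor for immunoglobulin G, had 2382, 1609 and 1680.4 in deletion and 1279, 1373 and 1507 in control, also without overlap (log2 change 0.43 ± 0.20, SE; adjusted p by limma = 0.35). Without both replicate 1 arrays the changes were 0.285 for Cd68 and 0.19 for Fcgr3. Fcgr1, the high-affinity receptor, did not follow: it had 426, 315 and 254 in deletion and 349, 450.2 and 289 in control. Cd14, the co-receptor for lipopolysaccharide, was higher in deletion within each pair of same-numbered arrays, with 411, 256 and 332 in deletion and 273, 198 and 259 in control, but its groups overlapped (adjusted p by limma = 0.483). Laptm5, a lysosomal membrane protein of blood cells, had 889.6, 631 and 503 in deletion and 524, 425 and 361 in control. It differed by 0.60 ± 0.25 (SE) on the log2 scale and passed only with the replicate block (adjusted p by limma = 0.297, and 0.0454 under the block), and its other kept probe set differed by 0.35 in the same direction. Without deletion replicate 1 its change was 0.385.

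Clec7a was the member with the largest change. It encodes Dectin-1, a lectin receptor for fungal beta-glucan on macrophages, monocytes, dendritic cells and neutrophils. Its signals were 94.6, 104 and 87.8 in deletion and 319, 368 and 256 in control, and it was called Present on all 6 arrays. The lowest control array lay well above the highest deletion array. It fell by 1.71 ± 0.25 (SE) on the log2 scale, 3.27-fold (adjusted p by limma = 0.0101, and 0.00198 under the block), and the pairs of same-numbered arrays differed by -1.76, -1.82 and -1.54. The call ended without control replicate 2, where the change was -1.59 (adjusted p by limma = 0.0789).

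Neutrophil markers were read beside Clec7a. S100a9, a calcium-binding protein that fills the cytoplasm of neutrophils, had signals of 48.1, 79.0 and 103 in deletion and 1044.5, 565.5 and 256.5 in control, and it fell by 2.87 ± 0.49 (SE) on the log2 scale (adjusted p by limma = 0.0188). Of 11 listed neutrophil genes 4 were tested, all 4 had lower means in deletion, 1 fell, and 4 had no Present call on any array. S100a8, the partner of S100a9, had 72.3, 137 and 353 in deletion and 1645, 749 and 346 in control, with overlapping groups, and passed only under the block (log2 change -2.31 ± 0.64, SE; adjusted p by limma = 0.104, and 0.0386 under the block). The summed signal of the 4 tested neutrophil genes spanned 200.2 to 563 in deletion and 725 to 2867 in control. Among the control arrays S100a9 was highest on replicate 1 and Clec7a on replicate 2. The part of neutrophils in the fall of Clec7a was not tested.

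Mpeg1, the pore-forming perforin-2 of macrophages, had signals of 880.4, 581 and 363 in deletion and 779.6, 1379 and 1082 in control. The replicate 1 arrays lay close together and the other 4 far apart. Its log2 change was -0.88 ± 0.33 (SE), which did not pass (adjusted p by limma = 0.236), and it was -1.41 without both replicate 1 arrays (adjusted p by limma = 0.0261) and -0.56 without deletion replicate 3. Cybb, the catalytic subunit of the phagocyte oxidase, had 213 to 373 in deletion and 277 to 467 in control. Ccr2, the chemokine receptor of inflammatory monocytes, was near background, Present on 1 deletion and 2 control arrays with signals of 18.2 to 36.3 in deletion and 28.1 to 59.7 in control. Neither passed in either fit.

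**Figure D2:**
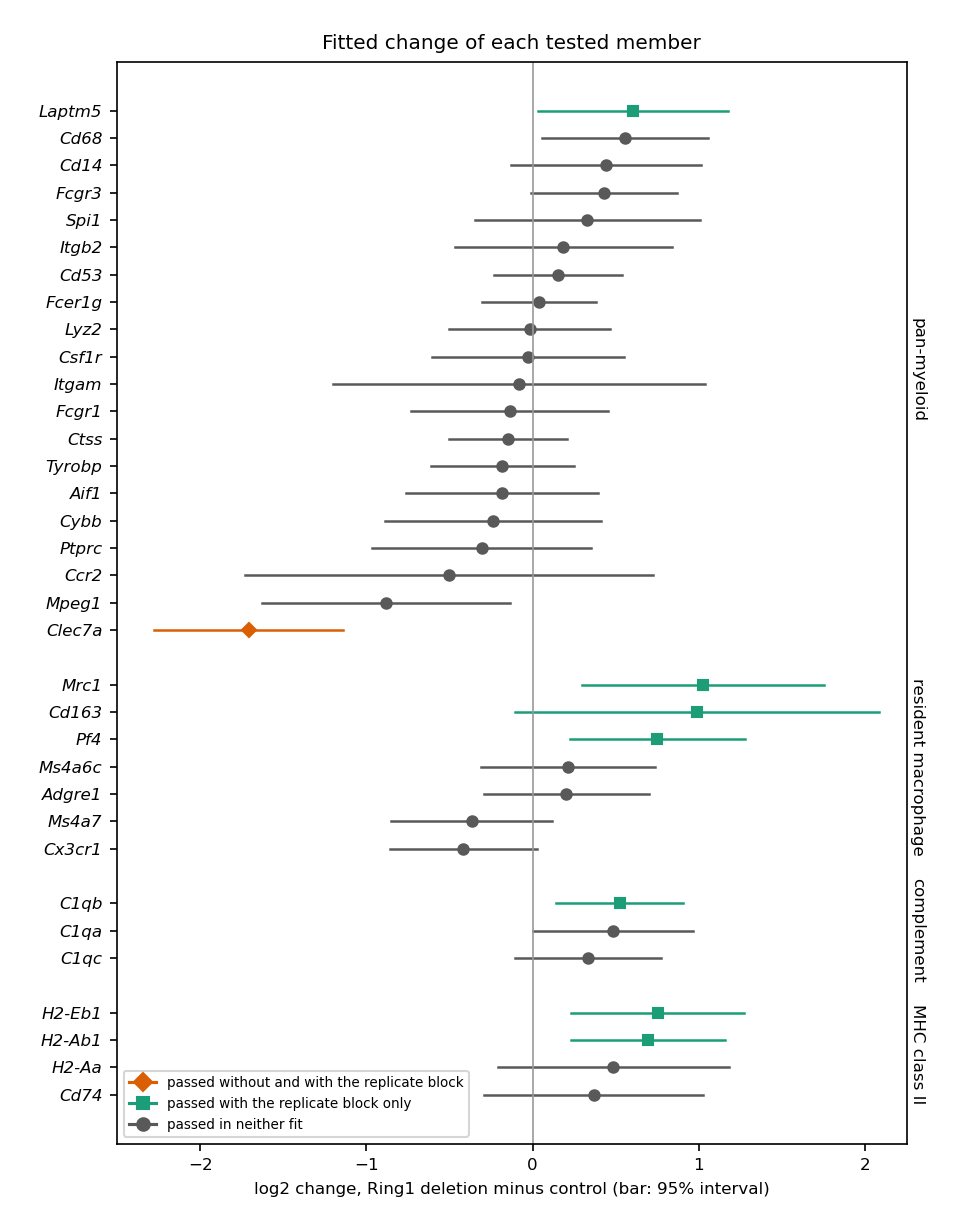
Fitted log2 change (Ring1 deletion minus control, x axis) of each tested member with its unadjusted 95% interval from the fit without the block, by subgroup. The orange diamond is Clec7a at -1.71, green squares are the 7 members that passed only with the replicate block, and grey circles passed in neither fit.

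Genes of resident macrophages split into higher and lower members. Mrc1, the mannose receptor CD206, had signals of 3369.9, 1662 and 1998 in deletion and 1659, 992 and 807 in control. Every deletion array exceeded every control array, by the narrowest margin between deletion replicate 2 and control replicate 1. The log2 change was 1.026 ± 0.32 (SE), 2.04-fold, and it passed only with the replicate block (adjusted p by limma = 0.149, and 0.00238 under the block). Both replicate 1 arrays were the highest of their group, and without both it passed in the fit without the block as well (adjusted p by limma = 0.0257). Without deletion replicate 1 alone its log2 change was 0.73, the lowest of the 17 alternatives. The highest adjusted p by limma among these was 0.42.

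Cd163, the scavenger receptor for haemoglobin, varied widely among the arrays of a group. Its signals were 781, 403 and 345 in deletion and 502, 126 and 219.8 in control, so that control replicate 1 exceeded 2 deletion arrays. Within each pair of same-numbered arrays deletion was higher, by 0.64, 1.68 and 0.65 on the log2 scale. The change of 0.99 ± 0.49 (SE) passed only with the replicate block (adjusted p by limma = 0.388, and 0.0276 under the block). Leaving out control replicate 1 gave 1.52 and leaving out control replicate 2 gave 0.52, whereas 0.635 was found without the first deletion array.

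Pf4, a chemokine best known from platelets and also made by resident macrophages, had 2922, 3017 and 3246 in deletion and 2511, 1844 and 1300.2 in control. The deletion arrays were alike and the control arrays were spread, without overlap between the groups. Its log2 change was 0.75 ± 0.23 (SE), 1.68-fold (adjusted p by limma = 0.145, and 0.033 under the block). Without control replicate 1 it passed in the fit without the block as well, at 0.98 (adjusted p by limma = 0.0464). Without control replicate 3 its change was 0.507, the lowest of the 17 alternatives. The highest adjusted p by limma among these was 0.379.

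Adgre1 and Cx3cr1 did not follow these 3 genes. Adgre1, which encodes the F4/80 antigen, had signals of 648, 423 and 453 in deletion and 449, 462 and 392 in control, and its log2 change was 0.20 ± 0.22 (SE; adjusted p by limma = 0.757). Cx3cr1, the fractalkine receptor, had 543, 598 and 459.7 in deletion and 713, 810.3 and 615 in control. The 2 groups did not overlap and the pairs differed by -0.39, -0.44 and -0.42, but the change of -0.42 ± 0.20 (SE) did not pass (adjusted p by limma = 0.366, and 0.132 under the block). The gene of its ligand, Cx3cl1, had 851, 375 and 432 in deletion and 258, 189.9 and 197 in control (log2 change 1.28 ± 0.32, SE; adjusted p by limma = 0.0756, and 0.00461 under the block).

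The tetraspan-like genes Ms4a7 and Ms4a6c differed in sign from each other. Ms4a7 had 934, 1360.0 and 1132 in deletion and 1388, 1822 and 1219 in control, lower in deletion in each pair. Ms4a6c had 939, 903 and 800.3 in deletion and 1031, 739 and 572 in control. Neither passed in either fit, at log2 changes of -0.37 ± 0.22 and 0.21 ± 0.23 (SE).

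Folr2, Siglec1 and Trem2 were not tested. The Folr2 probe set, for a folate receptor of resident macrophages, was Present on 1 deletion and 1 control array, with signals of 91.7 to 158 in deletion and 70.3 to 196 in control. One of 3 Siglec1 probe sets, for the sialic acid receptor CD169, was Present on 1 deletion array and on no control array. Trem2, a lipid receptor of macrophages and microglia, was called Present on no array by either of its probe sets. The signals of one were 37.2, 64.6 and 71.4 in deletion and 44.3, 34.2 and 85.9 in control, with overlapping groups. Nothing can be said here of a change in these 3 genes.

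**Figure D3:**
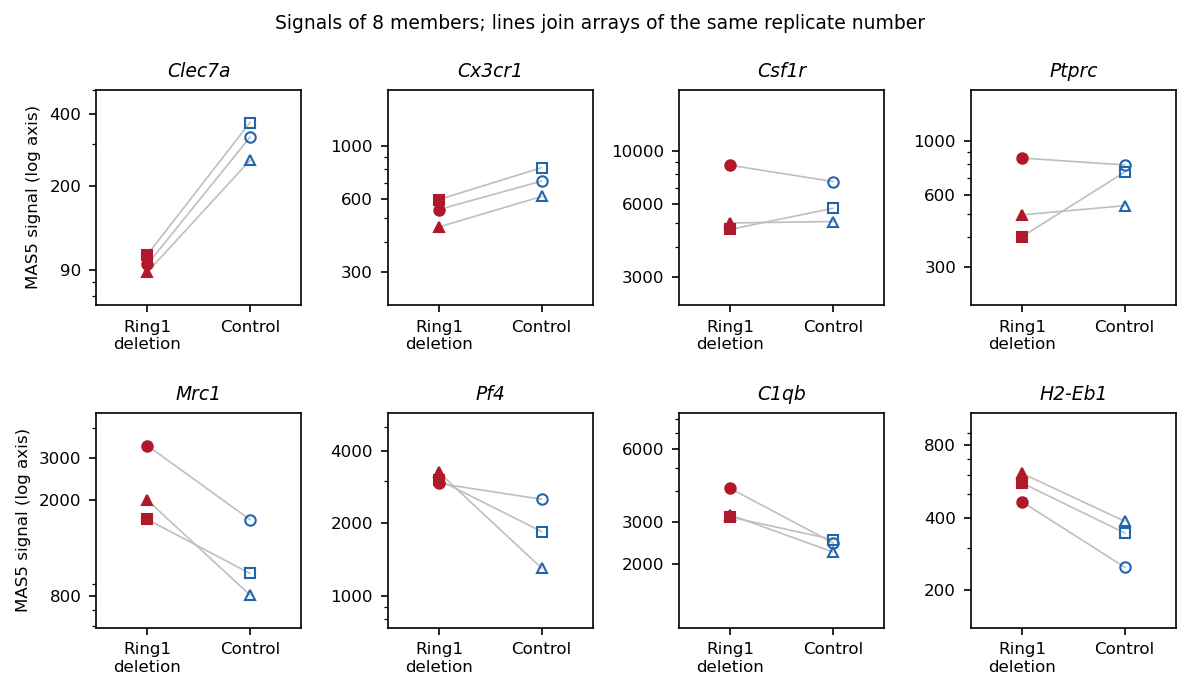
MAS5 signals of 8 members on a log axis, with Ring1 deletion arrays at the left and control arrays at the right of each panel. Marks are circle, square and triangle for replicates 1 to 3 and grey lines join arrays of the same number. The lines of Clec7a and Cx3cr1 all go up to control, those of Mrc1, Pf4, C1qb and H2-Eb1 all go down, and those of Csf1r and Ptprc go both ways.

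The 3 chains of C1q had higher signals in deletion in all 3 pairs of arrays. C1qa had 4325, 2782 and 3263 in deletion and 2874, 2489 and 2009 in control. C1qb had 4116, 3132 and 3194 in deletion and 2446, 2527 and 2242 in control, and its groups did not overlap. C1qc had 2665, 2018 and 2034 in deletion and 2104, 1745 and 1498 in control. All 3 were highest on deletion replicate 1 and lowest on control replicate 3. The log2 changes were 0.48 ± 0.21 for C1qa, 0.52 ± 0.17 for C1qb and 0.33 ± 0.19 for C1qc (SE; adjusted p by limma = 0.327, 0.164 and 0.493). C1qb alone passed with the replicate block (adjusted p by limma = 0.0379), and its other 2 kept probe sets differed by 0.55 each in the same direction. Without deletion replicate 1, their highest array and one of those that stood apart in RNA quality, the changes were 0.31 for C1qa, 0.40 for C1qb and 0.20 for C1qc, and without both replicate 1 arrays they were 0.43, 0.41 and 0.33. The 3 genes are neighbours on 1 chromosome and their proteins form 1 complex, so they are not separate evidence.

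All 4 MHC class II genes also had higher means in deletion. H2-Aa and H2-Eb1 lie close together on 1 chromosome, so the 4 genes are not all separate evidence. H2-Eb1 had signals of 466, 558 and 611 in deletion and 249, 346 and 387 in control. H2-Ab1 had 468, 498.0 and 503 in deletion and 247, 326 and 344 in control, with a Present call on 2 arrays of each group. In neither gene did the groups overlap. The log2 changes were 0.75 ± 0.23 for H2-Eb1 and 0.69 ± 0.21 for H2-Ab1 (SE; adjusted p by limma = 0.137 and 0.126), and both passed with the replicate block (adjusted p by limma = 0.0241 and 0.0404). The other kept probe set of H2-Ab1 differed by 1.19 in the same direction.

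H2-Aa, the alpha chain, had 1557, 2600.5 and 2869 in deletion and 1084, 2249 and 1735 in control, higher in deletion in each pair but with overlapping groups. Its change was 0.49 ± 0.31 (SE) on the log2 scale (adjusted p by limma = 0.536, and 0.0619 under the block). Its 3 other kept probe sets differed by 0.19 to 1.07 in the same direction. All 4 are of kinds that the array marks as able to bind related transcripts too. The same holds for the kept probe sets of H2-Ab1 and Laptm5, and for those of C1qb other than the one tested. Cd74, the invariant chain, had 445, 483 and 506 in deletion and 237, 544 and 393 in control. It was lower in deletion in the pair of replicate 2 and did not pass (log2 change 0.37 ± 0.29, SE; adjusted p by limma = 0.643).

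All 4 MHC class II genes were lowest on control replicate 1, the array with the highest 3' to 5' ratio. Without that array the median log2 change of the 4 was 0.37 in place of 0.59. The changes were then 0.57 for H2-Eb1, 0.55 for H2-Ab1, 0.20 for H2-Aa and 0.05 for Cd74, and none passed. The part of RNA quality in the subgroup's difference was not tested.

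**Figure D4:**
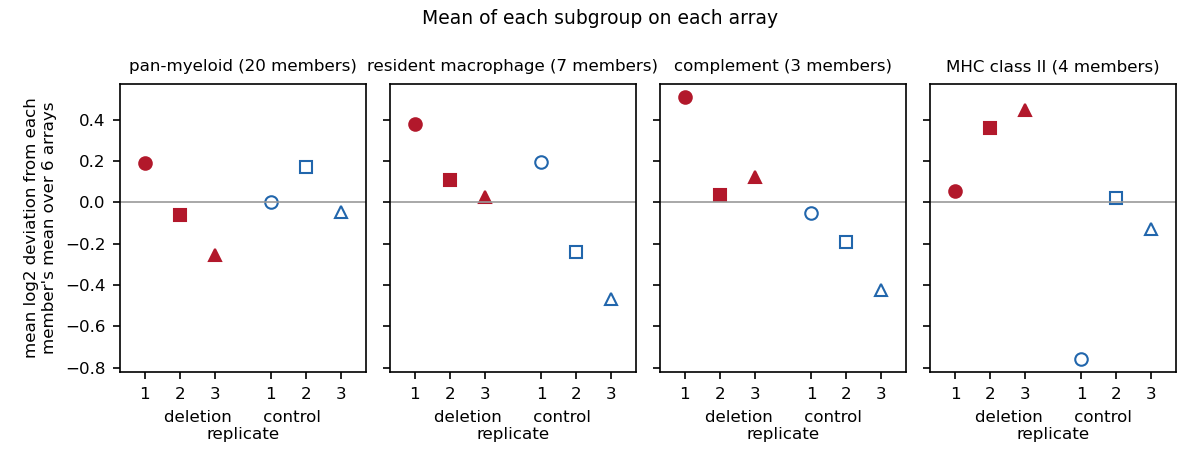
Mean over the tested members of each subgroup of the log2 signal minus that member's mean over the 6 arrays, with Ring1 deletion replicates 1 to 3 at the left and control replicates 1 to 3 at the right of each panel. Deletion arrays all lie above control arrays for C1q and MHC class II, and control replicate 1 is at -0.76 for MHC class II. The pan-myeloid values overlap.

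The arrays did not rank alike in the 4 subgroups. The mean log2 deviation of the 20 pan-myeloid genes was 0.19, -0.06 and -0.25 on deletion replicates 1 to 3 and 0.00, 0.17 and -0.05 on control replicates 1 to 3. For the 7 resident macrophage genes it was 0.38, 0.11 and 0.03 in deletion and 0.19, -0.24 and -0.47 in control. For C1q it was 0.51, 0.03 and 0.12 in deletion and -0.05, -0.19 and -0.43 in control. These 3 subgroups shared deletion replicate 1 as their highest array. MHC class II had 0.06, 0.36 and 0.45 in deletion and -0.76, 0.02 and -0.13 in control, so deletion replicate 1 was there the lowest of the deletion arrays. Of the 34 members 13 were highest on deletion replicate 1, 10 on control replicate 2 and 10 lowest on control replicate 3.

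Partners of antigen presentation outside the list gave no member that passed in the fit without the block. Of 12 listed accessory and costimulatory genes of MHC class II, 7 were tested, with a median log2 change of -0.03. Ciita, the master coactivator of class II transcription, had signals of 59.4, 65.7 and 79.8 in deletion and 45.1, 31.5 and 54.4 in control, without overlap (log2 change 0.67 ± 0.40, SE; adjusted p by limma = 0.509). Ciita was close to detection, with a Present call on 2 deletion and 2 control arrays. H2-DMa, which helps to load peptides, had 280.4, 199 and 245 in deletion and 188, 112 and 190.3 in control (adjusted p by limma = 0.387). Cd40, a costimulatory receptor, went the other way, with 539, 731 and 453 in deletion and 821, 885 and 958 in control, and passed only with the replicate block (log2 change -0.65 ± 0.21, SE; adjusted p by limma = 0.168, and 0.0486 under the block). Of 13 tested genes of MHC class I and its peptide supply none passed in either fit, and their median was 0.17. The smallest p among them was that of Nlrc5, the coactivator of class I genes, at a log2 change of 0.96 ± 0.32 (SE; adjusted p by limma = 0.175). Complement genes outside C1q had a median of 0.38 over 9 tested, and of these Serping1, the inhibitor of C1, passed only with the replicate block (adjusted p by limma = 0.0469).

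Chemokines and genes of phagocytosis included genes that rose. Among 14 tested growth factors, chemokines and their receptors, 13 had higher means in deletion, with a median of 0.50, and Ccl7, a monocyte chemoattractant, rose 4.92-fold (131, 256 and 358 in deletion and 54.0, 38.1 and 49.0 in control; adjusted p by limma = 0.021). Ccl8, Cx3cl1 and Cxcl12, which encode chemokines too, passed only with the replicate block. Csf1, a ligand of Csf1r, had 748.5, 770.0 and 886 in deletion and 608, 699 and 543 in control and did not pass (adjusted p by limma = 0.376). Among 23 tested genes of phagocytosis, scavenging and the lysosome, 21 had higher means in deletion, with a median of 0.46. Over all genes tested, 6432 of 12250 had higher means. Both lists were chosen with earlier results of these data known, and which cells made these RNAs was not tested. Gas6, a bridging ligand that lets the receptors Axl and Mertk bind dying cells, rose 3.1-fold (3039.7, 1669.7 and 2131 in deletion and 698, 597 and 871 in control; adjusted p by limma = 0.0107). Passing only with the replicate block were Msr1, Clec4n, Clec10a and Cd209f, receptors of macrophages, and Lgals3 and Psap, all higher in deletion.

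Msr1, the class A scavenger receptor, had 441, 387 and 445 in deletion and 303, 184 and 188 in control, without overlap (log2 change 0.95 ± 0.25, SE; adjusted p by limma = 0.0892, and 0.0195 under the block). Clec10a, a galactose lectin often found with Mrc1, had 391, 163 and 298 in deletion and 179, 84.9 and 126 in control (1.11 ± 0.39; adjusted p by limma = 0.204, and 0.0157 under the block). Lyve1, a hyaluronan receptor of some resident macrophages and of lymphatic vessels, had 194, 171 and 140.3 in deletion and 246, 107 and 81.9 in control, with a change of 0.37 ± 0.41 (95% interval -0.54 to 1.28) that passed in neither fit.

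Among 11 tested myeloid transcription factors the median was 0.02. Cebpa had 341, 205 and 292 in deletion and 161, 131 and 107 in control, and Klf4 had 2477.5, 3876 and 3149.8 in deletion and 4379.7, 4689 and 6199.6 in control. Both passed only with the replicate block, in opposite directions (log2 changes 1.06 and -0.69), as did Runx1 (0.68), and none of the 3 is made by myeloid cells alone. Toll-like receptors and inflammasome genes (13 tested, median 0.34), partners of Fc receptor, integrin and Syk signalling (17 tested, median 0.11) and interferon response genes (12 tested, median 0.13) held no gene that passed in either fit. The smallest p in these lists belonged to Tlr13 (log2 change 0.61 ± 0.25), Inpp5d (0.58 ± 0.25) and Rsad2 (-0.81 ± 0.49; SE).

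Markers of other cells were read beside the members. None of the 6 dendritic cell genes on the array had a Present call, and of 10 T and NK cell genes on it 1 was tested, Cd8a (log2 change 0.01). Among 3 tested B and plasma cell genes none passed, the smallest p being that of Cd79b (0.41 ± 0.32, SE), and no listed erythroid gene was tested. Of 9 mast cell genes 6 had no Present call, while Gata2, which other cells also express, rose 1.92-fold (adjusted p by limma = 0.0437). Osteoclast genes, of cells that share the macrophage lineage, had a median of 0.01 over 5 tested, and Mmp9 (0.87 ± 0.25) passed only with the replicate block (adjusted p by limma = 0.0199). Endothelial genes had a median of 0.09 over 9 tested (smallest p Vwf, 0.60 ± 0.35) and Schwann cell genes 0.01 over 3 tested (Pmp22, 0.26 ± 0.22), and none passed. Genes of dental epithelium had a median of -0.20 over 11 tested, their summed signal spanned 42354 to 193380 in deletion and 107321 to 158656 in control, and Shh fell 4.34-fold (adjusted p by limma = 0.00931). Epcam (-1.08) and Cdh1 (-1.06), adhesion molecules of epithelium, and the enamel protease gene Klk4 (0.98) passed only under the block (adjusted p by limma under the block = 0.0015, 0.0114 and 0.0114). Of the 12 tested genes of pulp mesenchyme and odontoblasts none passed without the block, and under it 3 passed toward higher values and 1 toward lower. The higher ones were Ibsp, a bone matrix protein (1.87 ± 0.44), Pdgfrb, a receptor of pericytes and mesenchyme (0.999 ± 0.38), and Col3a1, a fibrillar collagen (0.88 ± 0.26), and the lower one was Nes, an intermediate filament (-0.55 ± 0.17, SE). Their adjusted p by limma under the block was 0.0012, 0.0014, 0.02 and 0.0433, in that order. The part of a shift in these cells in the members' values was not tested.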

How the data were processed

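RNA of dental pulp was measured on 6 arrays, 3 Ring1 deletion and 3 control, each labelled a biological replicate; nothing says whether a replicate is 1 animal or a pool. Per the labels' protocols total RNA was amplified as cDNA and labelled by in vitro transcription. The authors deposited a linear intensity per probe set, computed with MAS5, per the submitters' processing notes, and scaled so that every array has a mean of 500 once the outer 2% on both sides is left out. Present calls were read from the authors' workbook, in which a column shows its group and no replicate. In each group some of these column names carry a shared number tag and another does not. What the tag means, and which replicates carry it, was not given. A further 12 columns of per-sample values in the workbook were not used. The genome build used by the authors was not given in the sources used here.

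Probe sets with 1 symbol, outside the array's controls, and called Present by 3 or more of the 6 arrays were kept (21614 of 45101), and the one of highest mean log2 signal stood for its gene (12250 genes). Signals under 1 were set to 1, log2 was taken, and limma 3.58.1 (R 4.3.3) gave two-sided tests by lmFit and a trended eBayes. P-values were adjusted by Benjamini-Hochberg over all genes, with a threshold of 0.05. Every adjusted p is from this fit or from the same fit with the replicate number as a block. The labels share replicate numbers across groups without saying that they pair, so the block is an alternative. After group means were removed, arrays of the same number correlated at 0.485, 0.189 and 0.286, each over 0.1. Deletion replicate 2 correlated with control replicate 3 at 0.213, above its 0.189 with control replicate 2, so pairs 2 and 3 are not clearly set apart. Deletion replicate 3 correlated with control replicate 2 at 0.117, also over 0.1. Removing the mean of 3 arrays ties their deviations together, so these correlations are not independent of each other. Passing 0.1 thus does not show that the numbers pair the arrays. Pair 1 joins the 2 arrays that stood apart in RNA quality. A pair in this text means only arrays of the same number. On simulated data with the real gene means and spreads, 30% of 100 genes changed by 1 on the log2 scale and 73% of 100 changed by 2 were recovered without the block. The simulated noise was independent between genes and arrays, whereas real arrays shared deviations across genes. These shares need not hold for the real data.

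The 37 members, their subgroups and 21 further lists were chosen with earlier results of these data known. Named are all members and, of other lists, genes that passed in either fit, or that of smallest p where none passed (the rule named up to 4 a list). Lyve1, Ciita, H2-DMa, Csf1 and the phagocytosis genes beyond 4 were named after their values were seen. In all, 17 alternatives were run. The number of arrays limits the precision.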

Additional observations from a re-analysis of the deposited data

How the results depend on the processing

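Of the 17 alternatives, quantile normalization, a floor of 16, log2(signal + 16), no detection filter, the mean of probe sets and no intensity trend left Clec7a as the only member called, as did Present calls on all 6 arrays and the probe set of largest variance. The number of members that rose was 7 with the replicate block, 4 with array quality weights and 2 without both replicate 1 arrays, against 0, and ranged from 0 to 1 when 1 array was left out, the 1 being Pf4 without Control replicate 1. The number that fell was 2 with array quality weights and without both replicate 1 arrays (Clec7a and Mpeg1), against 1, and ranged from 0 to 1 when 1 array was left out; it was 0 without Control replicate 2. Over all genes, 325 changed, against 1302 with the replicate block, 1106 with array quality weights, 500 without both replicate 1 arrays, 204 with Present calls on all 6 arrays and 196 with the probe set of largest variance, and 94 to 300 when 1 array was left out. The share of these that was higher was 71.4%, against 60.6% with the replicate block, 54.1% without Ring1_deletion replicate 2 and 87.2% without Control replicate 2. The median log2 change of the members stayed between 0.09 and 0.26. Signs turned only in members that passed under none of these settings: under quantile normalization Itgb2 (-0.0172), Csf1r (0.06) and Lyz2 (0.0419), with the mean of probe sets Csf1r (0.0225), and without both replicate 1 arrays Tyrobp (0.0553). With 1 array left out, Itgam ranged from -0.441 to 0.241, Csf1r from -0.309 to 0.133, Fcer1g from -0.0116 to 0.0758, Fcgr1 from -0.336 to 0.0365, Aif1 from -0.418 to 0.0524, Lyz2 from -0.14 to 0.207 and Cybb from -0.407 to 0.00279. Other members kept their sign but moved in size. Over all 17 alternatives Ptprc ranged from -0.619 to -0.0765 and Adgre1 from 0.0145 to 0.322. Cd14 ranged from 0.275 to 0.616 and Ms4a6c from 0.00958 to 0.434. The cause of these moves was not tested. Members near detection, Itgam, Itgb2, Ccr2, Folr2, Siglec1 and Trem2, are limited by signal over background.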
